A study of Mus musculus with 8 samples.

Results

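The 10 p53 target genes described here were *Cdkn1a*, *Mdm2*, *Ccng1*, *Bbc3*, *Bax*, *Trp53inp1*, *Sesn2*, *Phlda3*, *Eda2r* and *Zmat3*. They were chosen by name, with earlier results of these data known, from the 54752 genes counted in E15.5 mouse fetal brains. All 10 were found by their GENCODE symbol, and all 10 were among the 17865 genes that passed the filter on low counts. RNA-seq was performed on 8 whole brains of wild type C57BL/6 mice (substrain C57BL/6Slac in the study's methods), 1 library per brain. The 4 control brains (F36 and F37, female, and M30 and M31, male) came from a dam kept in its home cage, and the 4 stressed brains (F34 and F35, female, and M28 and M29, male) from a dam exposed during pregnancy to chronic unpredictable mild stress (CUMS), a daily change of mild stressors such as predator odour, restraint, wet bedding or light at night. According to the quality sheet of the study, each group was 1 litter, so that an effect of litter cannot be told apart from one of stress, and the p-values below measure the spread between littermates.

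The protein p53 (encoded by *Trp53*) is a transcription factor that accumulates after DNA damage, oncogenic signals, ribosomal stress or nutrient stress and binds DNA sites made of a pair of half-sites. Its targets halt the cell cycle, repair DNA, adjust metabolism or trigger apoptosis, and *Mdm2*, itself a target, encodes the ubiquitin ligase that degrades p53 in a negative feedback loop. In the developing brain, too much p53 activity depletes neural progenitors, and loss of *Trp53* can cause overgrowth of the neural tube.

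Of the 10 target genes, 3 were down-regulated in the stressed brains (*Cdkn1a*, *Bbc3* and *Phlda3*), 1 was up-regulated (*Trp53inp1*), and 6 did not pass the test (edgeR quasi-likelihood test adjusted for sex, adjusted p under 0.05 over the 17865 genes tested). Over all genes tested, 7.27% were called lower and 6.49% higher, 13.8% in all. Because the 10 genes were chosen with earlier results of these data known, these shares are a description and not a test of the targets. The changes were small. *Cdkn1a* fell by 21.2%, *Phlda3* by 21.5% and *Bbc3* by 16.5%, while *Trp53inp1* rose by 9.47%. The targets therefore did not move in 1 direction: the Log2FC (stress vs. control) was above 0 for 4 and below 0 for 6 of them, with a median of -0.04, where 50.6% of all genes tested were above 0 with a median of 0.0015.

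The promoters of 5 target genes are shown because they hold a sequence match to the DNA element through which p53 acts, or, for *Phlda3*, because a gene that fell had no such match in the same window. Binding of p53 was not measured. Each stretch is the 250 bases upstream of an annotated start, 5′ to 3′ on the strand of the gene, from RefSeq on GRCm38.p6, and capitals mark the best full p53 site found by a search (2 half-sites of the p53 consensus with a spacer of 0 or 1 base, both strands, at most 3 departures from the consensus).
*Cdkn1a* (chr17:29090729-29090978, + strand): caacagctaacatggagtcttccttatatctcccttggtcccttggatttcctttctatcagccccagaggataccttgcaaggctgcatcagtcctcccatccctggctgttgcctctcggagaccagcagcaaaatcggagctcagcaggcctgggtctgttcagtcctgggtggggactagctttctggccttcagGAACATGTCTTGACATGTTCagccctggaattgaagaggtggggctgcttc
*Bbc3* (chr7:16309333-16309582, + strand): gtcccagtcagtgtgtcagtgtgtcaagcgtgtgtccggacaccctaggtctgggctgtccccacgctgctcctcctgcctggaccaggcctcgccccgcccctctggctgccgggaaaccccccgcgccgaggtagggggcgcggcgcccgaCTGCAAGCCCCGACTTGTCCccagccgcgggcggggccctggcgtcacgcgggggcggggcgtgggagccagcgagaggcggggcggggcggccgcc
*Phlda3* (chr1:135765835-135766084, + strand): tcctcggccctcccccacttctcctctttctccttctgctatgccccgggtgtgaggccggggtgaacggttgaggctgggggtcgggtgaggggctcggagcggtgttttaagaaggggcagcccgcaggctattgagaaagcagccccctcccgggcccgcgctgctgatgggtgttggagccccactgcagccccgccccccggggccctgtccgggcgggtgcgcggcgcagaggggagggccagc
*Ccng1* (chr11:40755287-40755536, - strand): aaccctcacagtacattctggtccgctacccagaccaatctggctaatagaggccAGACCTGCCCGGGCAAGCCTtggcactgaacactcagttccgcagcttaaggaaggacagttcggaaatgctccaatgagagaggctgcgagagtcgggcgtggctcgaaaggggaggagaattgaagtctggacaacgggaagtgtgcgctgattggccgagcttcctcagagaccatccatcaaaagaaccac
*Bax* (chr7:45466899-45467148, - strand): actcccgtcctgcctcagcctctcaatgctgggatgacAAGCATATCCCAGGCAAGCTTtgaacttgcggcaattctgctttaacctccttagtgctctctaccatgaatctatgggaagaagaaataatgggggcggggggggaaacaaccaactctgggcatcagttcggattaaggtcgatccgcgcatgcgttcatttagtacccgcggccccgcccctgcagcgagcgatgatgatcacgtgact

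The RefSeq table held 11 windows of 300 bases (250 before and 50 after a start) for 8 of the 10 genes, and none for *Trp53inp1* and *Zmat3*. A full site with at most 1 departure was found for 3 genes, *Cdkn1a*, *Ccng1* and *Bax*, and is present in 0.177% of the 32851 windows searched. The site of *Cdkn1a* starts at base -51, with a spacer of 0, relative to the more upstream of the *Cdkn1a* starts searched. The one of *Ccng1* starts at -195 with a spacer of 0, and the one of *Bax* at -212 with a spacer of 1. The best match of *Bbc3*, at -97, departed from the consensus at 3 bases, a class of match that 11.7% of all windows hold. The windows of *Mdm2*, *Phlda3*, *Sesn2* and *Eda2r*, a second *Cdkn1a* start (window chr17:29093519-29093818) and 2 further *Bbc3* starts held no full site with at most 3 departures, which says only that these letters are not in these windows. Of the 3 genes with at most 1 departure, *Cdkn1a* fell while *Ccng1* and *Bax* did not pass the test.

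The 2 target genes of the cell cycle differed from each other. *Cdkn1a* (chr17:29090976-29100727) encodes p21, the inhibitor of cyclin-dependent kinases that carries the p53-dependent arrest in G1. Its expression was 28.3 CPM (counts scaled to a common library total after TMM normalization) in control F36, 27.0 in F37, 25.9 in M30 and 29.8 in M31, and 22.0 in stressed F34, 23.0 in F35, 22.0 in M28 and 20.7 in M29. All 4 stressed brains were below all 4 control brains. The means were 27.8 ± 1.67 CPM for the controls and 21.9 ± 0.94 CPM for the stressed brains (SD, n = 4 each), resting on 581 to 848 counts per brain. The Log2FC was -0.34 (SE 0.05, edgeR adjusted p = 5.9e-05, exact permutation p = 0.0286, the smallest that 4 against 4 can give), and the 95% confidence interval of the change ran from -26.7% to -15.3%. Another gene on the opposite strand covers 7.68% of the exon bases of *Cdkn1a*, and reads there cannot be assigned by strand in these counts.

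*Ccng1* (chr11:40748552-40755311) encodes cyclin G1, an atypical cyclin that recruits a phosphatase to MDM2. It was at 44.8, 48.1, 47.3 and 47.2 CPM in control F36, F37, M30 and M31 and at 41.9, 45.1, 47.2 and 47.3 CPM in stressed F34, F35, M28 and M29. The groups overlapped, with the lowest value in stressed F34. The Log2FC was -0.05 (SE 0.04, edgeR adjusted p = 0.490), with an interval from -8.57% to 2.41%, so that a fall as large as that of *Cdkn1a* lies outside it.

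*Mdm2* (chr10:117688875-117710758), the feedback gene, had 78.3, 73.8, 83.5 and 74.8 CPM in control F36, F37, M30 and M31 and 76.2, 76.5, 77.3 and 80.9 CPM in stressed F34, F35, M28 and M29. All stressed values lay within the range of the controls. The group means were 77.6 ± 4.39 and 77.7 ± 2.19 CPM (SD, n = 4 each), the Log2FC was 0.0029 (SE 0.04, edgeR adjusted p = 0.972), and the interval ran from -4.74% to 5.41%. With 1937 to 2343 counts per brain, *Mdm2* was among the targets measured most precisely.

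**Figure D1:**
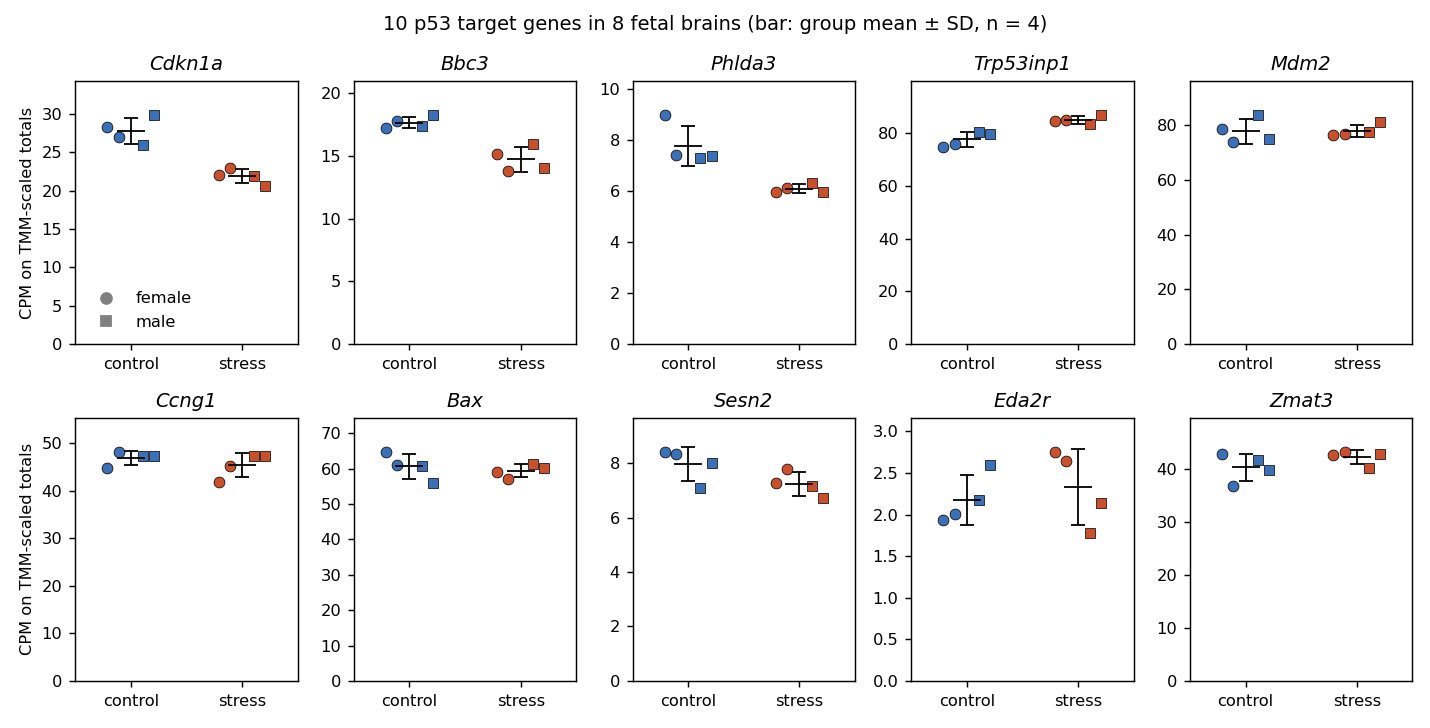
Expression of the 10 p53 target genes in each brain (CPM, y axis from 0), with circles for females, squares for males and bars for the mean and SD of each group (n = 4). In the panels of *Cdkn1a*, *Bbc3* and *Phlda3* the stressed brains lie below all controls, in that of *Trp53inp1* they lie above all controls, and in the other 6 the groups overlap.

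Of *Bbc3*, *Phlda3*, *Bax* and *Eda2r*, described next, 2 fell, where 7.27% of all genes tested were called lower. *Bbc3* (chr7:16308393-16318205) encodes PUMA, a BH3-only protein through which p53 activates mitochondrial apoptosis. It was at 17.2 CPM in control F36, 17.7 in F37, 17.4 in M30 and 18.2 in M31, and at 15.2 in stressed F34, 13.7 in F35, 15.9 in M28 and 14.0 in M29. No stressed brain reached the lowest control. The mean fell from 17.6 ± 0.45 to 14.7 ± 1.0 CPM (SD, n = 4 each), with a Log2FC of -0.26 (SE 0.06, edgeR adjusted p = 0.0033, exact permutation p = 0.0286) and an interval of the change from -23.2% to -9.26%.

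*Phlda3* (chr1:135766119-135769136) encodes a small pleckstrin homology protein that keeps AKT from the membrane and so favours cell death. The control values were 8.96 CPM in F36, 7.40 in F37, 7.29 in M30 and 7.38 in M31, and the stressed values 5.94 in F34, 6.12 in F35, 6.31 in M28 and 5.94 in M29. The groups did not overlap, but control F36 stood apart from its 3 littermates. The Log2FC was -0.35 (SE 0.09, edgeR adjusted p = 0.0068, exact permutation p = 0.0286), with an interval of the change from -30.5% to -11.3%, and it was -0.28 without F36, with an edgeR adjusted p of 0.0490. With 155 to 246 counts per brain *Phlda3* was one of the least counted targets.

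*Bax* (chr7:45461697-45466898) encodes the effector that permeabilizes the outer mitochondrial membrane. It had 64.7, 61.1, 60.9 and 55.8 CPM in control F36, F37, M30 and M31 and 59.1, 57.0, 61.2 and 60.1 CPM in stressed F34, F35, M28 and M29. The stressed brains lay inside the range of the controls, and the Log2FC was -0.03 (SE 0.04, edgeR adjusted p = 0.709, interval from -7.39% to 3.80%). It was -0.12 (SE 0.05) in the females alone and 0.06 (SE 0.05) in the males alone. The interaction of sex and stress did not pass the correction (edgeR unadjusted p = 0.0252, adjusted p = 0.711). A gene on the same strand, *Gm45808*, covers 12.2% of the exon bases of *Bax*, and how reads there were assigned is uncertain.

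*Eda2r* (chrX:97333840-97377216), a receptor of the TNF receptor family for ectodysplasin A2, was the lowest of the 10, with 51 to 76 counts per brain. It was at 1.93, 2.01, 2.18 and 2.60 CPM in control F36, F37, M30 and M31 and at 2.75, 2.65, 1.78 and 2.14 CPM in stressed F34, F35, M28 and M29. The stressed group held both the highest and the lowest value. The Log2FC was 0.09 (SE 0.15, edgeR adjusted p = 0.776), and the interval from -14.7% to 32.2% was the widest of the 10. A fall as large as that of *Cdkn1a* lies outside this interval over both sexes. The Log2FC was 0.45 (SE 0.19) in the females alone and -0.29 (SE 0.21) in the males alone, so that the interval sets no such limit for the males.

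*Trp53inp1* (chr4:11156431-11174379), whose protein acts in autophagy and in the response to oxidative stress and promotes p53 phosphorylation, was the one target that rose. It was at 74.8 CPM in control F36, 75.8 in F37, 80.3 in M30 and 79.9 in M31, and at 84.8 in stressed F34, 85.2 in F35, 83.5 in M28 and 86.8 in M29. Every stressed brain was above every control brain. The mean rose from 77.7 ± 2.79 to 85.1 ± 1.38 CPM (SD, n = 4 each), with a Log2FC of 0.13 (SE 0.03, edgeR adjusted p = 0.0057, exact permutation p = 0.0286) and an interval of the change from 4.70% to 14.5%.

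*Sesn2* (chr4:132492032-132510501) encodes sestrin 2, a leucine sensor that inhibits mTORC1. Its values were 8.41, 8.36, 7.07 and 8.01 CPM in control F36, F37, M30 and M31 and 7.28, 7.78, 7.15 and 6.74 CPM in stressed F34, F35, M28 and M29. The groups overlapped through control M30, and the Log2FC was -0.14 (SE 0.08, edgeR adjusted p = 0.268, interval from -18.8% to 1.57%). With 195 to 237 counts per brain, a fall like that of *Bbc3* lies inside this interval.

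*Zmat3* (chr3:32334792-32366014) encodes a zinc finger protein that binds RNA and regulates splicing. It was at 42.8, 36.9, 41.8 and 39.9 CPM in control F36, F37, M30 and M31 and at 42.7, 43.3, 40.3 and 43.0 CPM in stressed F34, F35, M28 and M29. The groups overlapped, with control F37 lowest. The Log2FC was 0.07 (SE 0.04, edgeR adjusted p = 0.359, interval from -1.68% to 11.7%).

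**Figure D2:**
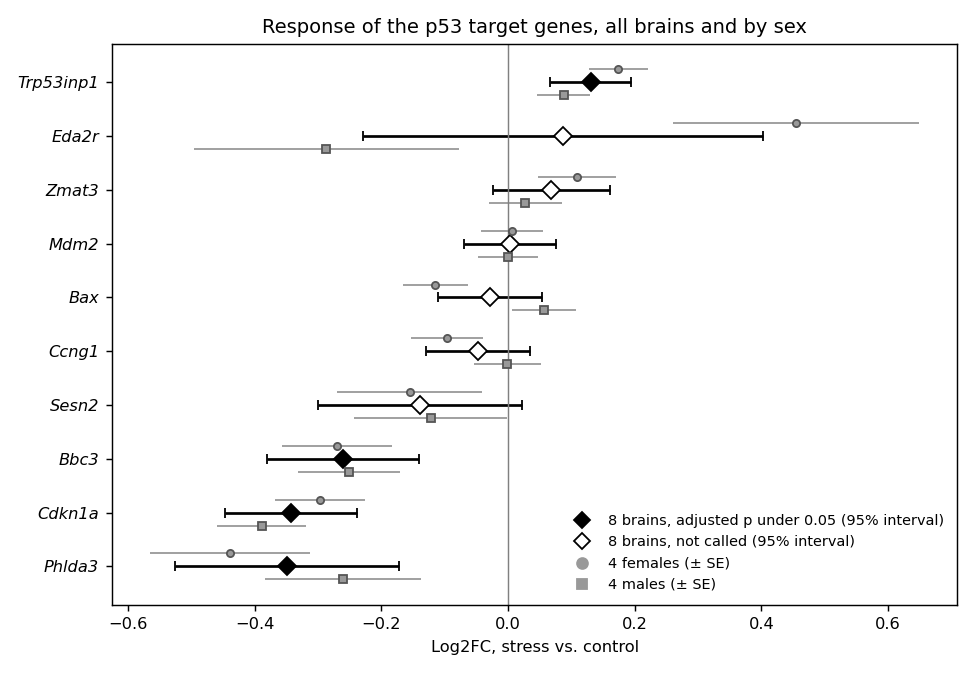
Log2FC (stress vs. control, x axis) of each of the 10 p53 target genes with its 95% confidence interval from edgeR over all 8 brains, and the Log2FC ± SE of the females and the males alone. Filled diamonds mark an adjusted p under 0.05. The intervals of *Cdkn1a*, *Bbc3* and *Phlda3* lie below 0 and that of *Trp53inp1* above 0, while those of the other 6 genes include 0.

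In 4 of the 10 target genes the values of the groups did not overlap, and these were the 4 that were called, where the groups of 16.4% of all genes tested did not overlap (8.22% lower and 8.20% higher in stress). The 4 calls held in all 8 fits that left out 1 brain and in all 5 other fits, and none of the other 6 genes was called in any of them. Over the fits without 1 brain, the Log2FC was between -0.38 and -0.29 for *Cdkn1a*, between -0.30 and -0.23 for *Bbc3*, between -0.39 and -0.28 for *Phlda3* and between 0.12 and 0.15 for *Trp53inp1*. The summed expression of the 10 genes was 358 to 374 CPM in the control brains and 358 to 368 CPM in the stressed brains, with ranges that overlapped.

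The spread between littermates, set beside the counting error, differed from target to target. In the control group the coefficient of variation was 6.03% for *Cdkn1a*, where counting error alone gives 3.81%, and in the stress group it was 4.30%. For *Eda2r* it was 13.7% among the controls and 19.5% among the stressed brains, where counting error gives 12.6%. *Phlda3* varied by 10.3% among the controls and by 2.90% among the stressed brains, where counting error gives 7.21%. The spread exceeded counting error most among the controls, for *Mdm2* (5.65%, where counting error gives 2.15%), *Bax* (6.02% and 2.45%) and *Zmat3* (6.50% and 2.95%), and among the stressed brains it did so for *Ccng1* (5.63% and 2.79%).

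Each sex was then fitted alone, 2 stressed against 2 control brains. In the females 3 of the 10 genes were called (*Cdkn1a*, *Phlda3* and *Trp53inp1*, against 3.91% of all genes), and in the males 2 were called (*Cdkn1a* and *Bbc3*, against 8.49%). *Cdkn1a* fell in the females, by a Log2FC of -0.30 (SE 0.07, edgeR adjusted p = 0.0135), and in the males, by -0.39 (SE 0.07, edgeR adjusted p = 0.0005). *Bbc3* had -0.27 in females (edgeR adjusted p = 0.0762) and -0.25 in males (edgeR adjusted p = 0.0477). *Phlda3* had -0.44 in females (edgeR adjusted p = 0.0405) and -0.26 in males (edgeR adjusted p = 0.205), and *Trp53inp1* 0.17 (edgeR adjusted p = 0.0268) and 0.09 (edgeR adjusted p = 0.219). The difference between the sexes was tested itself as an interaction, and 0 of the 10 genes passed in edgeR or in DESeq2, with 2 genes at an unadjusted p under 0.05 in edgeR and 0 in DESeq2, where 6.31% of all genes had such a p in edgeR and 0.00560% passed after adjustment. Between males and females irrespective of stress, 0 of the 10 genes were called or had an unadjusted p under 0.05 in edgeR, with a lowest adjusted p of 0.868, where 0.0896% of all genes were called.

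To compare the targets with each other, counts were divided by exon length (FPKM, CPM per kilobase of exon). In the control brains *Bax* was highest with 38.5 ± 2.31 FPKM (SD, n = 4), above 93.4% of the genes tested. *Mdm2* (15.3 FPKM), *Ccng1* (13.3), *Trp53inp1* (12.001), *Bbc3* (8.30), *Cdkn1a* (7.81), *Phlda3* (4.98), *Zmat3* (3.53) and *Sesn2* (2.29) followed, and *Eda2r* was lowest with 0.37 ± 0.05 FPKM (SD, n = 4), above 12.4% of the genes tested. *Bbc3* and *Cdkn1a* were the only neighbours in this order whose ranges overlapped. In the stressed brains *Trp53inp1* (13.1 FPKM) stood above *Ccng1* (12.9) with ranges that overlapped, and the order of the other genes did not differ from that of the controls. *Cdkn1a* and *Bbc3*, whose ranges overlapped in the controls, did not overlap in the stressed brains (means 6.16 and 6.93 FPKM). Their ranges there nearly touched, with the highest *Cdkn1a* value at 6.46 FPKM and the lowest *Bbc3* value at 6.47 FPKM.

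**Figure D3:**
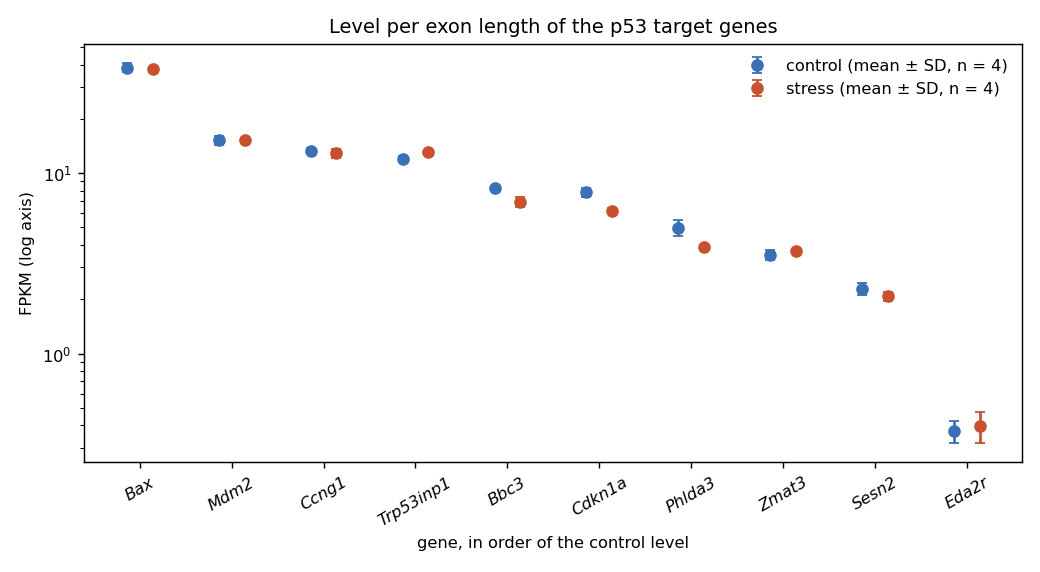
Expression level per exon length (FPKM, log axis) of the 10 p53 target genes, as the mean and SD of the 4 control and the 4 stressed brains, ordered by the mean of the control brains. *Bax* is highest near 38.5 FPKM and *Eda2r* lowest near 0.37 FPKM, and the order of *Ccng1* and *Trp53inp1* differs between the groups.

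The targets did not rise and fall together from brain to brain. Over the 45 pairs of the 10 genes, Pearson's r of the log2 CPM values was between -0.94 and 0.87 over the 8 brains, and between -0.80 and 0.71 once the mean of each group was removed, with a median of -0.07. *Cdkn1a* and *Phlda3* had r = 0.87 over all brains and 0.28 within groups. For *Cdkn1a* and *Bbc3* it was 0.86 and 0.16, and for *Cdkn1a* and *Sesn2* 0.77 and 0.71. The 5 genes whose pattern over the 8 brains was most like that of *Cdkn1a* were *Jakmip3* (r = 0.99), *Rasgrp3* (0.99), *Ncald* (0.98), *Prkca* (0.98) and *Rab15* (0.98). All 5 were also called lower in the stressed brains, and as they were picked from 17865 genes for this likeness, the values are a description and have no p.

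The transcript of p53 itself was slightly higher in the stressed brains. *Trp53* was at 63.2, 65.1, 66.2 and 61.4 CPM in control F36, F37, M30 and M31 and at 67.4, 69.2, 72.8 and 71.0 CPM in stressed F34, F35, M28 and M29, so that the groups did not overlap. Its Log2FC was 0.13 (SE 0.03, edgeR adjusted p = 0.0114), with an adjusted p of 0.0658 without control M31 and of 0.0526 without stressed M28. *Mdm4*, which encodes the partner of MDM2 in holding p53 in check, had a Log2FC of -0.02 (SE 0.03, edgeR adjusted p = 0.758). Of the 21 regulators tested (of 23 listed), *Trp53* was the 1 called higher and *Ppp1r13b*, which encodes a protein that directs p53 to apoptotic targets, the 1 called lower, with a Log2FC of -0.12 (edgeR adjusted p = 0.0168). The call of *Ppp1r13b* was lost without control M30 (adjusted p = 0.0735), stressed F34 (0.0521) or stressed M29 (0.0906). The median Log2FC of the 21 regulators was 0.04. In each direction 4.76% of them were called, against 6.49% higher and 7.27% lower over all genes tested. The p53 protein and its modification, through which most of its regulation runs, were not measured.

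Of the 39 other p53 targets tested (of 43 listed), 4 were called higher and 1 lower, with a median Log2FC of 0.04. These were 10.3% and 2.56% of the genes tested in the list, against 6.49% and 7.27% of all genes tested. Those called higher were *Psrc1* (0.31, edgeR adjusted p = 0.0008), a spindle protein gene, *Xpc* (0.21, adjusted p = 0.0021), a damage sensor of nucleotide excision repair, *Btg2* (0.18, adjusted p = 0.0069), an antiproliferative gene of neurogenic progenitors, and *Ckap2* (0.18, adjusted p = 0.0087), a spindle protein gene of dividing cells, whose adjusted p was 0.0501 without a sex term. *Cgref1* had a Log2FC of -0.17 (edgeR adjusted p = 0.0427), a call that held without control F36 or stressed M28 and was lost without any of the other 6 brains (adjusted p up to 0.224, without control F37). In the BCL2 and caspase list, 1 of 19 genes tested (of 20 listed) was called higher, *Mcl1* (0.09, edgeR adjusted p = 0.0321), a survival gene. *Bad*, a BH3-only gene, was called lower (-0.24, edgeR adjusted p = 0.0015), and its exons overlap those of another gene over 25.8% of their bases. The call of *Mcl1* held without control M31, stressed F34 or stressed M28 and was lost without any of the other 5 brains, with an adjusted p of up to 0.117 without control F36. The median of this list was 0.03. In each direction 5.26% of its tested genes were called, against 6.49% higher and 7.27% lower over all genes tested.

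Among the relatives of the 10 targets, 1 of 11 genes tested (of 12 listed) was called higher and the others were not called (edgeR). That is 9.09%, where 6.49% of all genes tested were called higher. The gene called was *Cdkn1c*, which encodes p57, the relative of p21 that is expressed from the maternal allele and drives cell cycle exit in neural progenitors. It was at 72.6, 71.5, 75.7 and 73.5 CPM in control F36, F37, M30 and M31 and at 79.6, 84.4, 82.7 and 91.2 CPM in stressed F34, F35, M28 and M29. Its Log2FC was 0.20 (SE 0.03, edgeR adjusted p = 0.0002), the opposite direction to *Cdkn1a*, and 30.7% of its exon bases lie under another gene on the opposite strand. The third gene of this family, *Cdkn1b* (p27), had a Log2FC of 0.01 (SE 0.03, edgeR adjusted p = 0.832). The other sestrin genes had Log2FC values of 0.04 (*Sesn1*, edgeR adjusted p = 0.523) and 0.06 (*Sesn3*, edgeR adjusted p = 0.209).

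**Figure D4:**
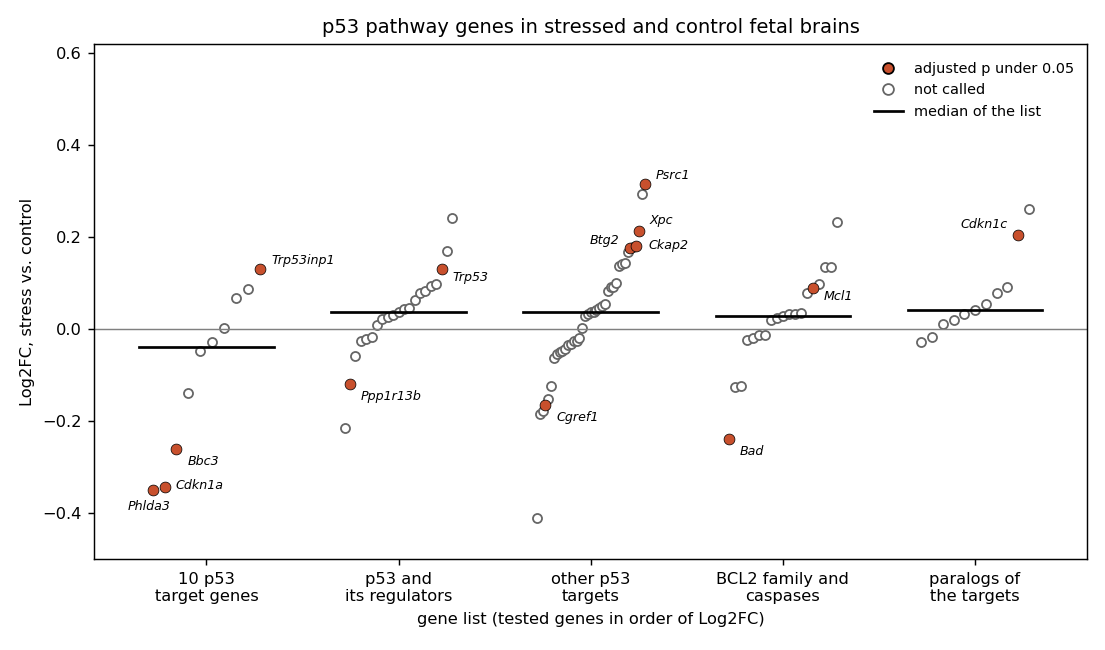
Log2FC (stress vs. control, y axis) of each gene tested in the list of 10 p53 target genes, the 21 regulators, the 39 other p53 targets, the 19 BCL2 family and caspase genes and the 11 paralogs. Filled points are genes with an adjusted p under 0.05, and the bars mark the list medians, -0.04 for the 10 targets and between 0.03 and 0.04 for the others.

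In whole-brain RNA, fewer cells of a type and less RNA per cell cannot be told apart, and markers of several cell types moved with the condition. Over all genes tested, 6.49% were called higher and 7.27% lower. All 6 markers of cycling cells were called higher, with a summed expression of 532 to 572 CPM in the control brains and 598 to 684 CPM in the stressed brains. Of the 4 endothelial markers 2 were called lower (114 to 125 and 102 to 112 CPM), and of the 6 neuronal markers 3 were called lower (6103 to 6332 and 6026 to 6282 CPM). While 3 of 6 radial glia markers were called higher, the other 3 had a Log2FC below 0 and were not called. The radial glia sums overlapped (1135 to 1184 CPM in the control and 1132 to 1239 CPM in the stressed brains). No microglia marker was called or had an unadjusted p under 0.05 in edgeR. Markers of mesenchyme (3 of 4 higher, 12.4 to 25.7 and 17.0 to 60.0 CPM) were highest in stressed M28 and, among the controls, in F36, the brain with the highest *Phlda3*. *Ttr*, a choroid plexus marker, was called higher, with a summed expression of its list of 2.01 to 9.94 CPM in the controls and 2.35 to 32.2 CPM in the stressed brains, highest in F34. Among 7 erythroid markers 2 were called higher and 1 lower, with sums that overlapped (364 to 410 and 370 to 384 CPM). The 2 called higher were the embryonic globin genes *Hbb-y*, which rose by 79.3% (Log2FC 0.84, SE 0.13, edgeR adjusted p = 0.00012), and *Hba-x*, which rose by 113% (Log2FC 1.09, SE 0.15, edgeR adjusted p = 2.2e-05). In both the groups did not overlap, and both changes were larger than that of any of the 10 targets, while the adult globin gene *Hbb-bs* was the 1 called lower (Log2FC -0.14, edgeR adjusted p = 0.0098). All 4 immediate early genes tested had a Log2FC below 0, and 1 of them, *Junb*, was called lower (Log2FC -0.39, SE 0.13, edgeR adjusted p = 0.0415, 61 to 107 counts per brain). None of the 3 skeletal muscle markers tested (of 4 listed) was called. No marker of any list was at 0 in all brains. The 4 targets were also called without M28 and without F36. Leaving out 1 brain cannot address markers that differed between the whole groups, such as those of cycling cells. The part of the marked cell types in the changes of the targets was not tested.

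The libraries held between 25320109 and 29105710 counts. Mitochondrial genes took 2.1% to 2.31% of the counts, and the neuronal and radial glia markers of a fetal brain were present in every library. No pair of libraries differed by so little as sampling noise, and the common biological coefficient of variation was 3.14%.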

How the data were processed

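The authors extracted RNA of each brain with an RNeasy Lipid kit, captured mRNA by oligo(dT), trimmed the paired reads with Trim Galore, aligned them to mm10 with TopHat2 2.1.1 and counted them on exons with featureCounts 1.6.3 and GENCODE. The deposited files hold the raw count of each gene, and no strand option is stated. Genes were filtered with edgeR 4.0.16 (filterByExpr, minimum count 10, by group), TMM-normalized and tested with glmQLFTest (sex and condition, R 4.3.3), with Benjamini-Hochberg adjustment. Log2 CPM used a prior count of 2, and the permutation tests were exact and two-sided. The study's model also held a batch, which is not named for these 8 brains. Standard errors came from the Log2FC and the F value. Alternatives were DESeq2 1.42.0, median-of-ratios or upper-quartile scaling, no filter, no sex term and each brain left out. The members and gene lists were chosen with earlier results of these data known. Named besides the members were *Trp53*, *Mdm4*, the relatives of *Cdkn1a* and *Sesn2*, up to 6 called genes per list and the 5 genes most like *Cdkn1a*. The tests were tested on simulated data. One gene of the BCL2 and caspase list is not reported here.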

Additional observations from a re-analysis of the deposited data

Results flagged for a closer look

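*Phlda3* in control F36 was far from the other controls. It had 8.96 CPM, and the other 3 control brains 7.29 to 7.40 CPM, so that the gap to the nearest brain was 0.933 of the range of the group, above Dixon's 95% critical value for 4 samples. Chance alone marks about 1 in 20 groups, and 20 groups (10 genes in 2 conditions) were examined. Without F36 the Log2FC of *Phlda3* was -0.28, with an edgeR adjusted p of 0.0490.

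*Eda2r* moved in opposite directions in the sexes. Its Log2FC was 0.45 in the females and -0.29 in the males, and the interaction was -0.74 (SE 0.27, edgeR unadjusted p = 0.0123, adjusted p = 0.655 over all genes), which does not pass the correction. Both stressed females, at 2.75 and 2.65 CPM, were above the control females at 1.93 and 2.01 CPM, and both stressed males, at 1.78 and 2.14 CPM, were below the control males at 2.18 and 2.60 CPM.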

How the results depend on the processing

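The counts of the 10 targets (1 higher, 3 lower) were the same in the 8 fits without 1 brain and the 5 other alternative fits, and no Log2FC of a called target changed sign, while those of *Mdm2*, *Bax* and *Eda2r*, which were not called, crossed 0 among the fits without 1 brain. In the other lists, single calls depended on the fit. The regulators called higher were 2 without a sex term, and 0 to 2 with 1 brain left out. Those called lower were 0 to 1 with 1 brain left out. Of the other p53 targets, 4 to 7 were called higher with 1 brain left out (7 without stressed F35) and 3 without a sex term, where *Ckap2* was lost, and the number called lower was 0 with DESeq2, 0 without a sex term and 0 to 1 with 1 brain left out. Of the apoptosis genes 0 to 2 were called higher and 1 to 2 lower, and of the paralogs 1 to 2 higher, with 1 brain left out. Over all genes, DESeq2 called 748 higher and 911 lower where edgeR called 1160 and 1298, and without stressed M29 edgeR called 736 higher and 854 lower. The causes were not tested. No paired analysis was possible because the groups share no animal numbers. Depth limits *Eda2r* most, with 51 to 76 counts per brain.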
